A study of Mus musculus with 17 samples.

Results

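Expression of 8 genes of heme degradation and antioxidant defence was examined in mouse eosinophils from bone marrow and from the esophagus. The genes, taken by the symbol that the platform annotation gives their probe sets, were Hmox1, Nqo1, Gclc, Gclm, Txnrd1, Srxn1, Sod2 and Slc7a11. All 8 were measured, among 22180 genes in all. Each was read by 1 probe set except Slc7a11, which had 2.

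The eosinophils came from CC10-IL13Tg mice, in which doxycycline (Dox) in the food switches on a transgene for interleukin-13 (IL-13). IL-13 is a type 2 cytokine that drives the recruitment of eosinophils in allergic inflammation. Every group carried the transgene, and the mice were either Pirb-/- (knockout) or Pirb+/+ littermates (wildtype), of both sexes and 6 to 8 weeks old. The product of Pirb is an inhibitory receptor on the surface of myeloid cells. CC10 is the promoter of airway club cells. Eosinophils were sorted as CD45+, SiglecF+ and CCR3+ cells. The 17 arrays formed 6 groups: marrow without Dox (2 wildtype and 3 knockout), marrow after 2 weeks of Dox (3 and 3) and esophagus after 2 weeks of Dox (3 and 3). Esophageal eosinophils without Dox were not analysed here, so the tissue comparison is made with Dox only.

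Hmox1 encodes heme oxygenase 1, which splits heme into biliverdin, carbon monoxide and free iron. Like Nqo1, Gclc, Gclm, Txnrd1, Srxn1 and Slc7a11 it is a known target of the transcription factor NRF2, which electrophiles and oxidants release from its inhibitor KEAP1 and which binds antioxidant response elements in promoters. BACH1 represses Hmox1 at such elements until heme displaces it, ATF4 drives Slc7a11 when amino acids run short, and NF-kB drives Sod2 in inflammation. Eosinophils make an oxidative burst and carry a peroxidase that forms hypohalous acids, so they are exposed to oxidants of their own making.

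Values are log2 distances of an array from the median array of the same probe set. A value of 0 is therefore the middle array and not an absent transcript, and levels of different genes cannot be compared. For the same reason, whether a marker gene was absent could not be judged. The log base was not stated with the values and was taken as 2. The outlying array among the 17 was replicate 3 of knockout marrow without Dox. Across genes its SD was 0.811, where marrow arrays otherwise had 0.25 to 0.30 and esophageal arrays 0.50 to 0.59. It correlated with its own group at a mean r of -0.0268. All groups share 1 estimate of spread, so this array bears on every test. Values without it are given for the 8 genes wherever they change a call. Spread was unequal elsewhere too. Across genes, an array's deviations from its group mean had an SD of 0.267 to 0.315 in the wildtype esophagus. In the knockout esophagus it was 0.178 to 0.199, and in marrow with Dox 0.146 to 0.179. Differences are given with the standard error (SE) of the limma fit, and group means with the SD. A gene was called when its adjusted p, over all genes of a comparison, was under 0.05. No label says whether replicates were separate animals, so the p-values cover the spread of these samples, which may be technical. Pirb itself was not called between the genotypes, with knockout minus wildtype at -0.28 in the esophagus, -0.15 in marrow with Dox and -0.40 without Dox. Whether its probes lie in the deleted part is not known, so these values check nothing.

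**Figure D1:**
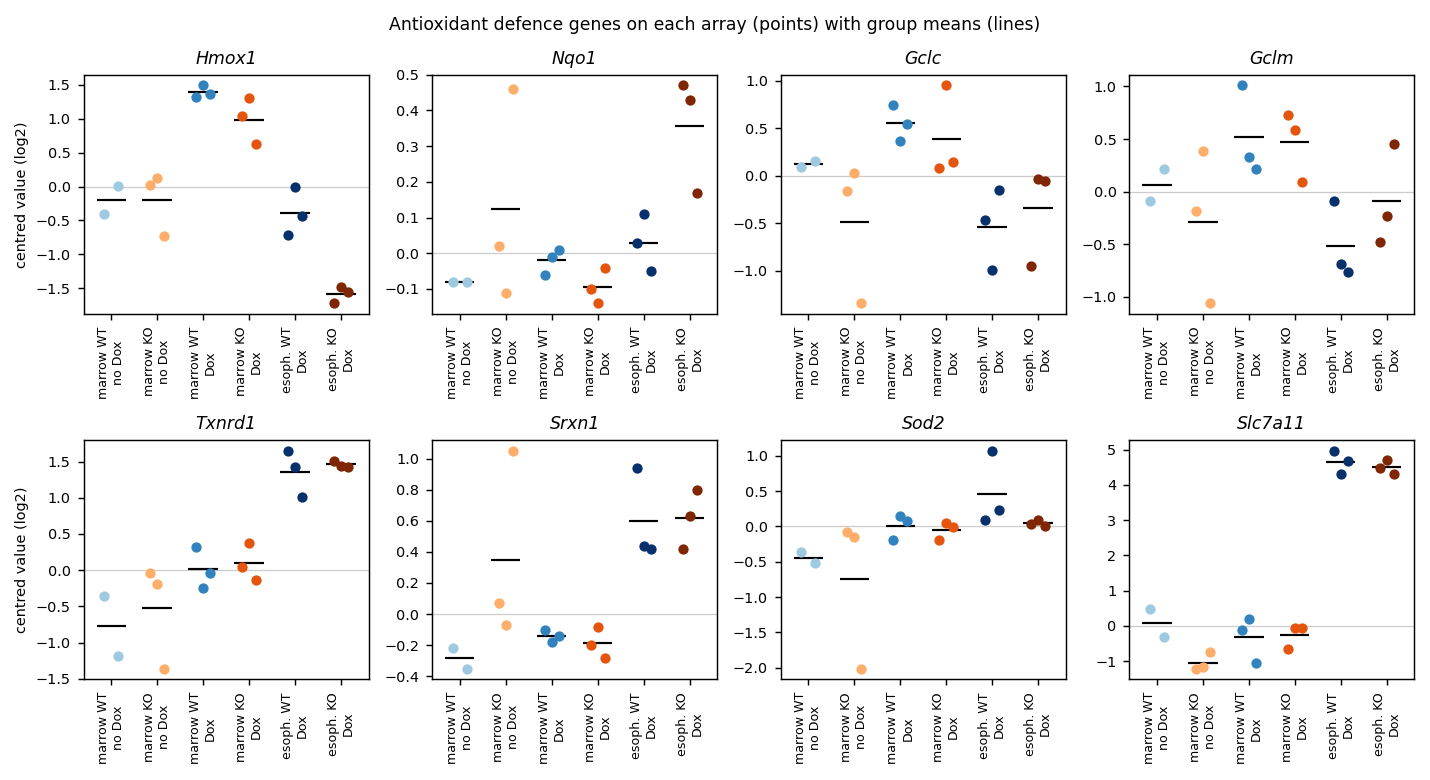
Centred log2 value of each of the 8 genes (vertical axes, each panel on its own scale) on the 17 arrays, by group; points are arrays and lines are group means. Slc7a11 lay between 4.31 and 4.97 in every esophageal array and no higher than 0.47 in any marrow array, while Hmox1 was highest in marrow with Dox and lowest in the knockout esophagus.

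Between tissues, eosinophils of the esophagus had far more Slc7a11 and more Txnrd1 than marrow eosinophils of the same Dox-fed genotype, and less Hmox1. This held in wildtype and in knockout. In wildtype, 3 of the 8 genes were called, 2 higher (Slc7a11 and Txnrd1) and 1 lower (Hmox1), where 15.2% of all genes were called, 8.11% higher and 7.06% lower. In knockout, 5 were called, with Srxn1 and Nqo1 also higher, where 10.5% of all genes were called, 4.5% higher and 6.04% lower. The arrays of the tissues lay wholly apart for 6 of the 8 genes in each genotype, beside 46.1% and 44% of all genes. The median difference over the 8 genes was 0.25 in wildtype and 0.27 in knockout, beside 0.14 and 0.06 over all genes. The overall split of calls in wildtype depended on the scaling, with 1799 genes higher and 1567 lower as deposited, 1181 and 1738 after median centring of the arrays, and 803 and 1245 after quantile normalization. Median centring lowered the median of all genes there from 0.14 to 0.03, and the 2 higher and 1 lower calls among the 8 genes stood under it.

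Slc7a11 encodes xCT, the cystine and glutamate exchanger that brings in the cystine needed to make glutathione. The 3 wildtype esophageal arrays were at 4.97, 4.31 and 4.68, and the 3 knockout arrays at 4.48, 4.72 and 4.32. In marrow with Dox the wildtype arrays were at -0.12, 0.21 and -1.04, and the knockout arrays at -0.65, -0.06 and -0.07. The 6 esophageal arrays thus lay close together and far above all marrow arrays, with no order between the genotypes. The difference between tissues was 4.97 ± 0.31 in wildtype (limma, adjusted p = 5.48e-07), a 31.3-fold higher value, and 4.77 ± 0.31 in knockout (adjusted p = 6.88e-07), 27.2-fold higher. Of 22180 genes ranked by difference, Slc7a11 was number 6 from the top in wildtype and number 10 in knockout. Both of its probe sets showed the difference, at 4.72 ± 0.52 and 5.21 ± 0.16 in wildtype and at 4.56 ± 0.52 and 4.98 ± 0.16 in knockout.

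In marrow without Dox, Slc7a11 was at 0.47 and -0.32 in wildtype and at -1.21, -1.17 and -0.74 in knockout. The arrays of the genotypes thus did not overlap in the average of its probe sets. Read singly, the first probe set overlapped, at -1.17 to 0.57 in wildtype and -1.83 to -1.12 in knockout, and the second did not. The genotype difference there was -1.11 ± 0.34 and was not called (adjusted p = 0.546). Without the outlying array it was -1.26 (adjusted p = 1). Ordered by group mean, Slc7a11 went from 4.65 ± 0.33 (SD, n = 3) in the wildtype esophagus and 4.51 ± 0.20 in the knockout esophagus to 0.08 in wildtype marrow without Dox, -0.26 and -0.32 in knockout and wildtype marrow with Dox, and -1.04 ± 0.26 in knockout marrow without Dox. The 2 esophageal groups overlapped, and each marrow group overlapped at least 1 of the others. Slc3a2, which encodes the heavy chain that xCT pairs with and was named after its values were seen, differed between tissues by 0.01 ± 0.38 in wildtype and 0.98 ± 0.38 in knockout, and was not called.

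The promoter sequence of Slc7a11, the gene with the largest difference among the 8, is shown because it holds a motif in inverted repeat. Sequences are the 250 bases before the annotated start, from RefSeq on GRCm38.p6, and the table used held 6 of the 8 genes. Motifs were searched on both strands. TGACNNNGC is the core of the antioxidant response element and was in 10.2% of all 32851 promoter windows. TGAGTCA, the AP-1 site, was in 4.46%, and TGATGCAA, the core of sites for ATF4 paired with C/EBP proteins, was in 0.791%. The latter pair of motifs was chosen after the letters of these promoters were seen. A window can count for both of the first motifs, because the reverse of TGAGTCA can run on into TGACNNNGC. Positions count back from the start of transcription. The Slc7a11 window (chr3:50443614-50443863, minus strand) has TGATGCAA at -66 to -59 and its reverse complement at -47 to -40, in capitals, and no match to the other motifs. A match is a run of letters and no evidence of binding.

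Slc7a11: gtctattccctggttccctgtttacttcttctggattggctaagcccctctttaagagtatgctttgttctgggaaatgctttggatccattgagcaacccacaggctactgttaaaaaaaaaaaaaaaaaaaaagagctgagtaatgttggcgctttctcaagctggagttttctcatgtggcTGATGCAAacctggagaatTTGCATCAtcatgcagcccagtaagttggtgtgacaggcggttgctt

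Gclc and Gclm encode the catalytic and the modifier subunit of glutamate-cysteine ligase, which makes the first bond of glutathione. Neither rose with Slc7a11. In wildtype, Gclc was at -0.47, -0.99 and -0.15 in the esophagus and at 0.74, 0.37 and 0.54 in marrow with Dox, with no overlap. In knockout it was at -0.95, -0.03 and -0.05 against 0.08, 0.95 and 0.14, again with every esophageal array lower. The differences of -1.09 ± 0.36 (adjusted p = 0.0595) and -0.73 ± 0.36 (adjusted p = 0.258) were not called. Gclm gave -1.03 ± 0.36 in wildtype (adjusted p = 0.0649), with esophageal arrays at -0.09, -0.69 and -0.76 below marrow arrays at 1.01, 0.33 and 0.22. In knockout its arrays overlapped, and the difference was -0.56 ± 0.36 (adjusted p = 0.391). Without the outlying array both wildtype differences were called, with the same sizes, for Gclc (adjusted p = 0.0138) and for Gclm (adjusted p = 0.0188). Between genotypes in the esophagus, knockout minus wildtype was 0.20 for Gclc (95% interval -0.59 to 0.99) and 0.42 for Gclm (-0.35 to 1.19).

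Hmox1 was lower in the esophagus in both genotypes and lowest in knockout. In marrow with Dox it was at 1.32, 1.49 and 1.37 in wildtype and at 1.04, 1.30 and 0.62 in knockout. In the esophagus it was at -0.71, -0.01 and -0.43 in wildtype and at -1.72, -1.48 and -1.55 in knockout. None of the 4 groups overlapped another. The tissue difference was -1.78 ± 0.24 in wildtype (adjusted p = 0.000508), a 3.43-fold lower value, and -2.57 ± 0.24 in knockout (adjusted p = 1.8e-05), 5.95-fold lower. By group mean the order was wildtype marrow with Dox (1.40 ± 0.09), knockout marrow with Dox (0.99 ± 0.34), the 2 marrow groups without Dox (both -0.19), wildtype esophagus (-0.38 ± 0.35) and knockout esophagus (-1.59 ± 0.12). The 2 marrow groups without Dox and the wildtype esophagus overlapped one another.

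Txnrd1 encodes cytosolic thioredoxin reductase, which uses NADPH to keep thioredoxin reduced. Its esophageal arrays were at 1.65, 1.42 and 1.01 in wildtype and at 1.51, 1.44 and 1.43 in knockout. Its marrow arrays with Dox were at 0.32, -0.25 and -0.04 in wildtype and at 0.04, 0.38 and -0.13 in knockout, all of them lower than every esophageal array. Txnrd1 was 2.55-fold higher in the wildtype esophagus (difference 1.35 ± 0.32, adjusted p = 0.0153) and 2.57-fold higher in the knockout esophagus (1.36 ± 0.32, adjusted p = 0.0138). The call was lost in wildtype without marrow replicate 2 with Dox (1.22, adjusted p = 0.0582). In knockout it was lost without marrow replicate 3 with Dox (1.25, adjusted p = 0.06) and after quantile normalization (0.86, adjusted p = 0.0664), and direction was kept in each case.

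Srxn1 encodes sulfiredoxin, which rescues peroxiredoxins from overoxidation. Esophageal arrays were at 0.94, 0.44 and 0.42 in wildtype and at 0.42, 0.63 and 0.80 in knockout. Marrow arrays with Dox were at -0.10, -0.18 and -0.14 in wildtype and at -0.20, -0.08 and -0.28 in knockout, so that the tissues did not overlap in either genotype. The knockout difference of 0.80 ± 0.23 was called (adjusted p = 0.0451) and the wildtype difference of 0.74 ± 0.23 just missed the threshold (adjusted p = 0.05004). Over 27 alternative settings the knockout call stood in 12 and the wildtype difference was called in 5. The knockout call was lost without any 1 array of wildtype marrow (with or without Dox), knockout marrow with Dox or the knockout esophagus, or without wildtype esophageal replicate 2 or 3, at 0.71 to 0.90. It was also lost with a replicate block (Srxn1 0.80, adjusted p = 0.0593). Whether the genotypes differed in this was tested by the interaction, at 0.06 (not called). With the outlying array left out, Srxn1 was called in both, at adjusted p = 0.00203 in wildtype and 0.00137 in knockout.

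The promoters of Srxn1 (chr2:152105274-152105523, plus strand) and of the second of 3 annotated starts of Txnrd1 (chr10:82858956-82859205, plus strand) are shown because these genes were higher in the esophagus together with Slc7a11 and hold other motifs than it. Srxn1 has TGAGTCA at -102 to -96 and at -45 to -39. Forms of the antioxidant response element other than TGACNNNGC were not searched, so the Srxn1 window is not shown to lack one. Txnrd1 has TGACNNNGC on the opposite strand at -92 to -84, and the windows of its other 2 starts had no match. The matches are in capitals.

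Srxn1: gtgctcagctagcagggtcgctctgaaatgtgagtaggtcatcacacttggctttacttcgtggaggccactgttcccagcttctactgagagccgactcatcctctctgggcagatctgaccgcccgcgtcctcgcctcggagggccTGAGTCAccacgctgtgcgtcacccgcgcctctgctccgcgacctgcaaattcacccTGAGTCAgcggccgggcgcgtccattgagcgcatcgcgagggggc

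Txnrd1: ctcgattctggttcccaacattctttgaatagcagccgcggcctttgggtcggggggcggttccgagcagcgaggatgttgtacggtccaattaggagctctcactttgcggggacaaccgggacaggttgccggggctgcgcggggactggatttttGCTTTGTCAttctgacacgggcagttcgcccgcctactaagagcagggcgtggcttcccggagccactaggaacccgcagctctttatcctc

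Of the other promoters in the table, the Gclm window also had TGACNNNGC, at -134 to -126 on the opposite strand, while the Nqo1 and Sod2 windows had no match.

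Nqo1 encodes a quinone reductase that spares cells the redox cycling of quinones. In the knockout esophagus it was at 0.47, 0.43 and 0.17, above the knockout marrow arrays with Dox at -0.10, -0.14 and -0.04. That difference, 0.45 ± 0.12, was called (adjusted p = 0.0347). In wildtype the arrays overlapped and the difference was 0.05 ± 0.12 (95% interval -0.22 to 0.32). The knockout call was lost under 7 of 27 alternatives, which were both replicate blocks (adjusted p = 0.0541 for the block on the number), leaving out any 1 of the 3 knockout marrow arrays with Dox (adjusted p = 0.101, 0.109 and 0.0716) and leaving out knockout esophageal replicate 1 or 2 (adjusted p = 0.13 and 0.109).

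Sod2 encodes the manganese superoxide dismutase of mitochondria. Wildtype arrays of the esophagus were at 0.09, 1.07 and 0.23, against -0.19, 0.15 and 0.07 in marrow with Dox. Knockout arrays were at 0.03, 0.09 and 0.01 against -0.19, 0.05 and -0.01. Wildtype esophageal replicate 2 alone was high, and otherwise the tissues overlapped. The differences were 0.45 ± 0.40 in wildtype (95% interval -0.41 to 1.31) and 0.10 ± 0.40 in knockout (-0.76 to 0.96), and neither was called.

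**Figure D2:**
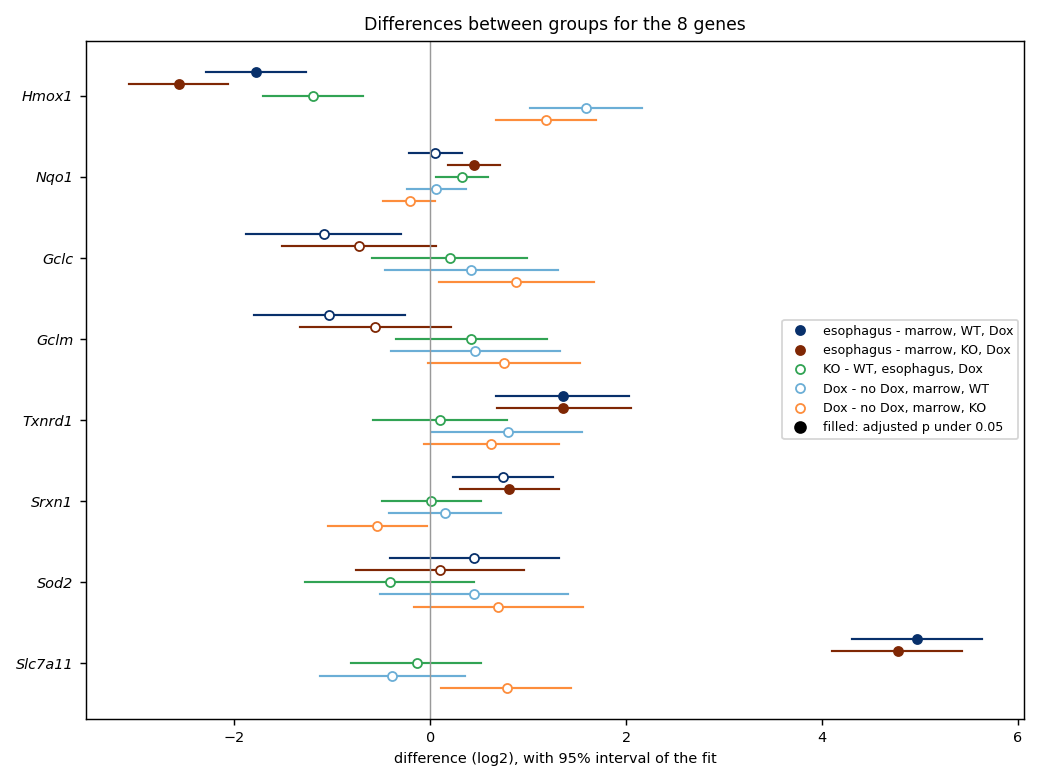
Differences between groups (horizontal axis, log2) for each of the 8 genes, with the 95% interval of the limma fit; colours mark the comparison and filled points an adjusted p under 0.05. Filled points stand for Slc7a11, Txnrd1 and Hmox1 between tissues in both genotypes and for Srxn1 and Nqo1 in knockout, and none for genotype or Dox.

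Knockout and wildtype were next compared in the esophagus. None of the 8 genes was called, where 0.347% of all genes were, and 2 of the 8 had an unadjusted p under 0.05, beside 14.7% of all genes. They were Hmox1 and Nqo1, which were also the 2 genes whose arrays lay wholly apart, as those of 23.3% of all genes did. Hmox1 was at -0.71, -0.01 and -0.43 in wildtype and at -1.72, -1.48 and -1.55 in knockout, with every knockout array lower. The difference was -1.20 ± 0.24 (95% interval -1.71 to -0.69) with adjusted p = 0.0511, just above the threshold, and was number 21 of 22180 from the lowest. Without the outlying marrow array, which belongs to neither group compared, the same difference was called (adjusted p = 0.00995), and it was called without wildtype replicate 1 (-1.37, adjusted p = 0.02). Of 14 macrophage and monocyte markers none was called here, and 5 had positive differences. Mrc1, the mannose receptor, had the largest change, at -1.07 ± 0.24 (adjusted p = 0.0814), with every knockout array lower. Without the same outlying array 3 of the 14 were called lower in knockout and none higher. Of all 22180 genes, 374 were then called lower and 389 higher. Over the 14 the median was -0.15, beside -0.10 over all genes. Their part in the Hmox1 difference was not tested. After quantile normalization Hmox1 differed by -0.85 (adjusted p = 0.649), and over all 27 alternatives it lay between -1.37 and -0.85 and was called in 4. Hmox1 with a replicate block had adjusted p = 0.0445.

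Nqo1 was at 0.03, 0.11 and -0.05 in the wildtype esophagus and at 0.47, 0.43 and 0.17 in knockout, a difference of 0.32 ± 0.12 in the other direction from Hmox1 (adjusted p = 0.28). Nqo1 was called without the outlying array (adjusted p = 0.0478). The other 6 genes overlapped between genotypes. Slc7a11 differed by -0.14 (95% interval -0.81 to 0.52), Txnrd1 by 0.10 (-0.58 to 0.78), Srxn1 by 0.01 (-0.49 to 0.52) and Sod2 by -0.41 (-1.28 to 0.45).

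The genotypes were also compared in marrow. With Dox, none of the 8 genes was called and none had an unadjusted p under 0.05, beside 0% and 1.83% of all genes. Hmox1 alone had wholly separate arrays, as 11.7% of all genes did, with knockout lower by -0.41 ± 0.24 (95% interval -0.92 to 0.10). Without Dox, none of the 8 was called, beside 0% of all genes, and 2 had an unadjusted p under 0.05 (Slc7a11 and Srxn1), beside 8.16%. Arrays lay wholly apart for 3 of the 8 (Gclc, Slc7a11 and Srxn1), beside 23.3% of all genes. Srxn1 was at -0.22 and -0.35 in wildtype and at 0.07, -0.07 and 1.05 in knockout, where 1.05 is the outlying array. Its difference of 0.64 ± 0.26 was 0.29 without that array.

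Whether the genotype effect differed between tissues was tested as an interaction. Hmox1 had -0.80 ± 0.33 (unadjusted p = 0.0329, adjusted p = 0.962) and Nqo1 0.40 ± 0.17 (adjusted p = 0.962). None of the 8 was called, beside 0.00451% of all genes, and 2 had an unadjusted p under 0.05, beside 4.95%. The lower Hmox1 value of knockout eosinophils is therefore not shown to be stronger in the esophagus than in marrow.

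After Dox, marrow eosinophils of both genotypes had higher Hmox1 values than without it. In wildtype they were at 1.32, 1.49 and 1.37 against -0.40 and 0.01, and in knockout at 1.04, 1.30 and 0.62 against 0.03, 0.12 and -0.73. No array with Dox reached as low as any without it. The Dox difference of Hmox1 was 1.59 ± 0.26 in wildtype (unadjusted p = 4.23e-05, adjusted p = 0.0864) and 1.18 ± 0.24 in knockout (unadjusted p = 0.000238, adjusted p = 0.113), and neither was called. None of the 8 genes was called in either genotype, and 0.0225% of all genes were called in each. In wildtype, Hmox1 was number 19 from the top of 22180, and it was called without the outlying array (adjusted p = 0.0115) and after quantile normalization (2.26, adjusted p = 0.0048). In knockout it was 0.91 without the outlying array (adjusted p = 0.263) and was called without knockout replicate 1 (1.29, adjusted p = 0.0429).

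The other genes had smaller Dox differences. In wildtype marrow, 7 of the 8 genes had every Dox array above both arrays without Dox, beside 12.5% of all genes, and Slc7a11 was the exception. Some gaps were very small. The lowest Dox array and the highest without Dox were both at 0.22 after rounding for Gclm, and at -0.06 and -0.08 for Nqo1. Differences of the 7 ran from 0.06 for Nqo1 to 0.79 for Txnrd1 and 1.59 for Hmox1. The median over the 8 was 0.44, beside -0.01 over all genes. Only Hmox1 and Txnrd1 had an unadjusted p under 0.05, beside 4.31% of all genes. In knockout, 3 genes (Hmox1, Gclc and Slc7a11) had every Dox array higher, beside 8.34% of all genes, and 1 (Srxn1) had every Dox array lower, beside 28.1%. An unadjusted p under 0.05 was seen for 4 of the 8, beside 27.3% of all genes. The knockout median of 0.72 (all genes -0.13) was 0.29 (all genes -0.05) without the outlying array. Gclc differed by 0.88 with that array and by 0.46 without it. In the same order, Gclm gave 0.75 and 0.37, Txnrd1 0.62 and 0.21, Sod2 0.69 and 0.06, and Slc7a11 0.78 and 0.93. None of the 8 was called in the genotype by Dox interaction, beside 0% of all genes, and Slc7a11 alone had an unadjusted p under 0.05 (1.17 ± 0.46, adjusted p = 0.663), beside 6.27%. These Dox comparisons and the tissue comparisons share the marrow arrays with Dox, so a high Hmox1 value there enters both.

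Other genes of these pathways were taken from 6 lists with 65 measured genes. In the tissue comparison 4 of the 65 were called higher and 10 lower in wildtype, and 3 higher and 9 lower in knockout, with medians of 0.00 and -0.06 beside 0.14 and 0.06 over all genes. With the outlying array left out, 10 were called higher and 14 lower in wildtype, and 8 higher and 12 lower in knockout. Of all 22180 genes, 5569 were then called higher and 2523 lower in wildtype, and 2163 and 2012 in knockout. Tissue counts of lists without this array, given below, are to be read beside these. The alternative was chosen after seeing the data. None of the 65 was called in the other 7 comparisons as reported. Without that array 3 were called higher in the knockout than in the wildtype esophagus, where 389 of 22180 genes were. After median centring 1 was, where 96 of all genes were. Quantile normalization gave 2 higher calls after Dox in wildtype marrow and 1 in knockout, where 92 and 117 of all genes were called higher. As reported, 1799 of all genes were called higher and 1567 lower in wildtype, and 997 and 1339 in knockout. How many of all genes were called in both genotypes in 1 direction is not given here. The split that follows is therefore not shown to be particular to these lists. Of the 65 genes, those called in both genotypes in the same direction were 2 higher and 7 lower in the esophagus.

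Heme and iron genes accounted for 4 of these 7. In that list 4 of 12 measured genes were called lower and none higher in each genotype, with medians of -0.57 in wildtype and -0.61 in knockout. Leaving out the outlying array added 1 higher call in wildtype and 2 in knockout. Slc40a1, which encodes the iron exporter ferroportin, had a difference of -3.24 ± 0.49 between wildtype tissues (adjusted p = 0.00126) and of -2.58 ± 0.49 between knockout tissues (adjusted p = 0.00422). Its arrays lay between -2.96 and -1.34 in the esophagus and between 0.50 and 1.26 in marrow with Dox. Cd163, the scavenger receptor for haptoglobin-bound hemoglobin, differed by -1.70 and -2.13. Fech, the ferrochelatase that inserts iron into heme, differed by -0.96 and -1.0, and Slc48a1, the heme transporter HRG1, by -0.86 and -0.91. Hmox1 thus fell in the same comparison as 4 genes of heme and iron handling, while Hmox2, the constitutive heme oxygenase, was not called (0.05 ± 0.28 and 0.61 ± 0.28). With Dox, 12 of these 12 heme and iron genes had positive differences in wildtype marrow (median 0.37), where 10757 of 22180 genes did, and 8 of 12 in knockout (median 0.28), where 6776 did. None was called.

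Among 18 glutathione genes, 2 were called higher and 2 lower in wildtype, and 1 each in knockout (2 each without the outlying array), with medians of 0.00 and -0.04. Ggct, a gamma-glutamylcyclotransferase, was higher in both genotypes (0.77 and 0.70), and Mgst2, a microsomal glutathione transferase that also makes leukotriene C4, was lower in both (-2.52 ± 0.48 and -2.90 ± 0.48). Among 8 thioredoxin and peroxiredoxin genes, 1 was called lower in wildtype (3 without the outlying array), and 1 higher and 3 lower in knockout. Prdx2, a cytosolic peroxiredoxin, was lower in both genotypes, by -0.76 and -0.64, in the direction opposite to Txnrd1. Among 12 genes of NADPH supply and other NRF2 targets, 1 was called higher and 2 lower in wildtype and 1 each in knockout, and without the outlying array 3 each and 2 each. Osgin1, an NRF2 target, was higher in both (0.50 and 0.48), and Abcc4, an exporter of leukotrienes and cyclic nucleotides, was lower (-0.88 and -1.45).

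Of 9 regulators of NRF2, 1 was called, in wildtype (2 without the outlying array). It was Nfe2l2, the gene of NRF2 itself and named after its values were seen, with a difference of 0.96 ± 0.22 (adjusted p = 0.0151), and 0.58 ± 0.22 in knockout (adjusted p = 0.132). Of 6 genes of superoxide dismutases, catalase and metallothioneins, 1 was called lower in wildtype and none in knockout, and without the outlying array 2 higher and 1 lower in wildtype and 1 each in knockout. The gene called as reported was Sod1, the cytosolic superoxide dismutase and also named after its values were seen, at -0.81 ± 0.11 in wildtype and -0.30 ± 0.11 in knockout. The calls of Ggct, Fech and Osgin1 were lost under 11, 12 and 12 of 54 alternatives, counting both genotypes, while those of Slc40a1, Cd163, Mgst2, Slc48a1 and Prdx2 stood in all 54.

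**Figure D3:**
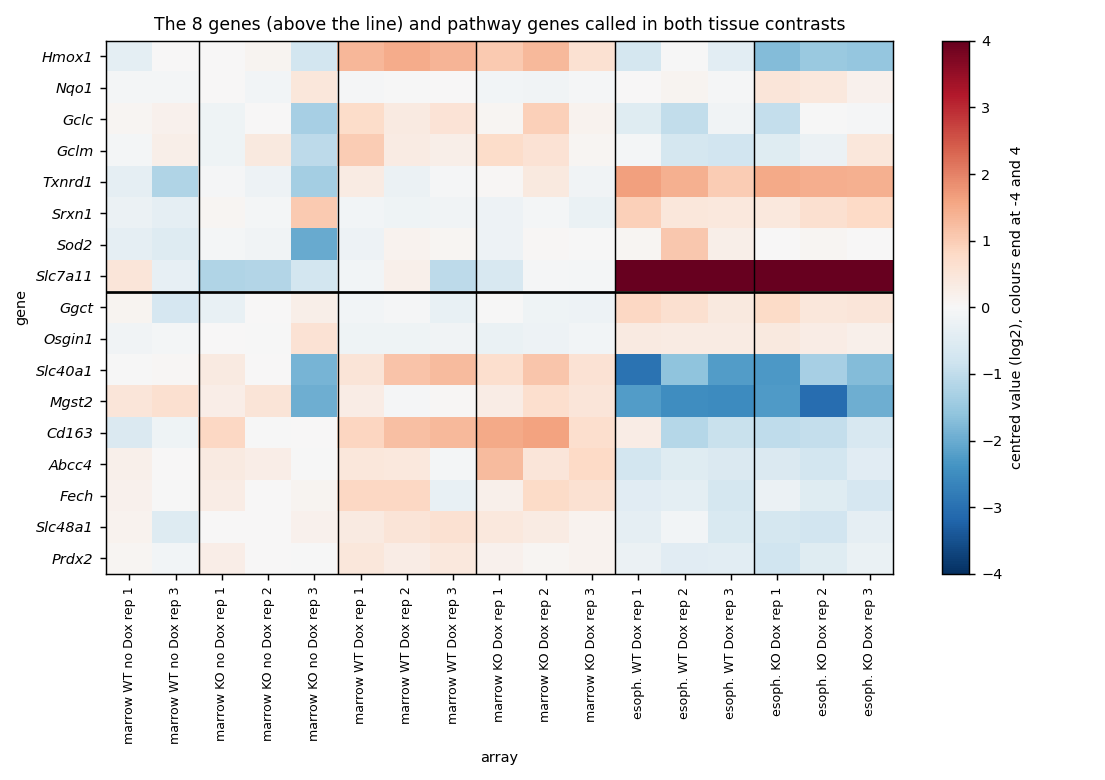
Centred log2 values (colour, ending at -4 and 4) of the 8 genes, above the line, and of the 9 list genes called in both tissue comparisons, on each of the 17 arrays. The esophageal arrays are deep red for Slc7a11 (4.31 to 4.97) and lighter for Txnrd1 (1.01 to 1.65). Srxn1 (0.42 to 0.94), Ggct (0.40 to 0.83) and Osgin1 (0.19 to 0.39) are positive there but pale on this scale. Hmox1 shares with Slc40a1 and Cd163 a light red block in marrow with Dox.

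Markers of other cells moved with Hmox1. Over 14 macrophage and monocyte markers, the mean centred value of an array lay between -0.24 and -0.19 in wildtype marrow without Dox, between -0.89 and 0.22 in knockout marrow without Dox, and between 0.31 and 0.69 in marrow with Dox. In the esophagus it lay between -0.68 and -0.39 in wildtype and between -0.80 and -0.66 in knockout. Cd163 belongs to this list as well as to the heme list. Between tissues 4 of the 14 were called lower and 1 higher in wildtype, and 8 lower and 1 higher in knockout. The lower calls numbered 6 and 9 without the outlying array, where 2523 and 2012 of 22180 genes were called lower. Vcam1, the adhesion molecule of macrophages that hold developing red cells in marrow, differed by -4.11 and -3.90, and Mertk, a receptor for the uptake of dead cells, by -2.94 and -3.06. Ly6c2, a monocyte surface antigen, had the largest difference in wildtype (-5.23), and Csf1r, the receptor of macrophage growth factor, differed by -0.19 and 0.15. After Dox, 12 of the 14 had positive differences in each genotype, with medians of 0.79 and 0.92, and none was called. Their medians without the outlying array were 0.79 and 0.35, with 1 of the 14 then called higher in wildtype. After quantile normalization 4 were called higher in wildtype and 1 in knockout, where 92 and 117 of 22180 genes were. The part of macrophage RNA in the Hmox1 result was not tested. Fewer cells of a type and less RNA per cell cannot be told apart in sorted bulk samples.

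**Figure D4:**
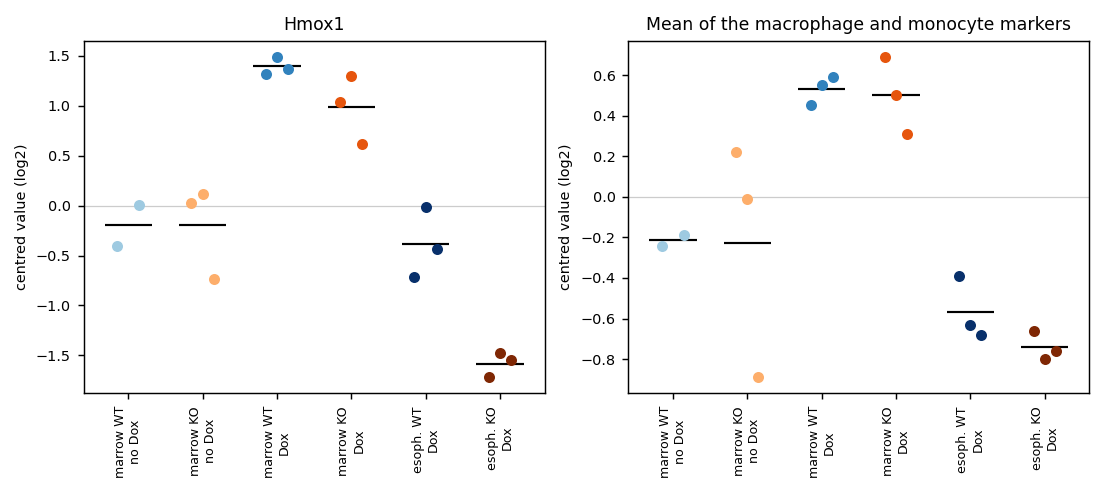
Hmox1 (left) and the mean of 14 macrophage and monocyte markers (right) on each array, as centred log2 values by group; points are arrays and lines are group means. Both were highest in marrow with Dox and had their lowest group mean in the knockout esophagus. For the markers, 1 array of knockout marrow without Dox lay lower still (-0.89). The knockout esophageal arrays lay wholly below the wildtype ones for Hmox1, at -1.72 to -1.48. For the markers the genotypes overlapped in the esophagus, at -0.80 to -0.66 in knockout and -0.68 to -0.39 in wildtype.

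The eosinophil markers also bear on the tissue comparison and on the genotype comparison in the esophagus. Their mean over 10 measured genes lay between 0.12 and 0.40 in marrow with Dox, between -0.82 and -0.34 in the wildtype esophagus and between -0.30 and 0.10 in the knockout esophagus. Between tissues, 1 was called higher and 3 lower in wildtype, beside 8.11% and 7.06% of all genes. In knockout, 3 were called higher and 4 lower, beside 4.5% and 6.04%. In each genotype 5 of the 10 had positive differences, with medians of -0.12 and -0.02 beside 0.14 and 0.06 over all genes. The lower calls in wildtype numbered 5 without the outlying array, where 2523 of 22180 genes were called lower. Epx, the eosinophil peroxidase, differed by -3.50 in both genotypes, and its Dox difference in marrow was 1.5 in wildtype and 1.60 in knockout (neither called). The largest tissue difference of the list was that of Prg3, a granule protein gene, at -5.22 and -4.91. Epx and Prg3 do not stand for the list, since 5 of the 10 went the other way in each genotype. Between genotypes in the esophagus, 8 of the 10 were higher in knockout, where 6676 of 22180 genes were. Their median there was 0.40, beside -0.10 over all genes. Of the 10, 1 was called higher and 0 lower, where 69 and 8 of all genes were. The part of these markers in the Hmox1 and Nqo1 results was not tested. The mean of 12 neutrophil markers was lower in the esophagus too, at -3.12 to -2.11 against -0.10 to 0.36 in marrow with Dox. Of these, 7 were called lower and 2 higher in wildtype, and 8 lower and 2 higher in knockout. Mast cell and basophil marker means lay between -1.57 and -1.29 in the esophagus, against 0.15 to 0.48 in marrow with Dox. Epithelial markers lay between -0.09 and 0.26 in the esophagus and fibroblast markers between 0.12 and 0.58, against -0.15 to 0.06 and -0.15 to -0.06 in marrow with Dox. Endothelial markers lay between 0.08 and 0.31 in the esophagus, against -0.09 to -0.01 in marrow with Dox. Esophageal lymphocyte marker means lay between -0.52 and 0.03, against -0.02 to 0.24 in marrow with Dox. Means of 3 measured erythroid markers lay between -0.19 and 0.40, against -0.10 to 0.12. Fibroblast and endothelial marker means were thus above those of marrow with Dox where Slc7a11 was high. The median difference of 6 endothelial markers was 0.16 in wildtype and 0.05 in knockout, beside 0.14 and 0.06 over all genes. None of them was called in wildtype and 1 in knockout, Pecam1 (1.60). For 7 fibroblast markers the median was 0.42 in each genotype, with 1 and 2 called higher. The part of either list in the Slc7a11 result was not tested.

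The genes whose values were closest to each of the 5 genes with a tissue difference over 1 were found by the root mean square of the difference in centred values over 17 arrays. For Hmox1 they were Arap2 (0.42), Hpgds (0.42) and Prxl2b (0.43). Hpgds is the hematopoietic prostaglandin D synthase, a glutathione-dependent enzyme. All 3 were lower in the esophagus, by -2.36 and -2.52 for Hpgds, but Hpgds differed between genotypes there by -0.25, where Hmox1 differed by -1.20. For Slc7a11 they were Thbs1 (0.57), which encodes thrombospondin 1, Ccrl2 (0.59), a chemerin-binding receptor, and Tnfaip3 (0.61), the NF-kB inhibitor A20. Tissue differences of these 3 in wildtype were 5.43, 4.90 and 4.01. Cxcl2, a neutrophil chemokine, came first without the outlying array (0.54). For Txnrd1 they were Gm13363 (0.33), Gna13 (0.34) and Man1a (0.35), for Gclc they were Virma (0.24), Trmt1l (0.29) and Med4 (0.30), and for Gclm they were Slc25a32 (0.25), Atp5g3 (0.29) and Ccar1 (0.30).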

How the data were processed

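RNA of sorted eosinophils was amplified (Nugen Ovation One-Direct), labelled with biotin and hybridised to Affymetrix arrays, per the labels' protocols. The submitters' processing notes name Affymetrix Expression Console without a version. For the normalization between arrays, the method was not given in the sources used here. Values the authors deposited are log values, taken as log2, for 33793 probe sets on 17 arrays. Each probe set had been centred: in 97.08% of them, middle values mirrored each other around 0 within 2e-05, which places 0 at the median of all arrays before 1 wildtype marrow array without Dox was dropped. Centring leaves differences between groups as they are and hides brightness, so no filter on dim probes could be applied, and all genes were tested. A single symbol was given for 23521 probe sets, several for 1814 and none for 8458. Entrez identifiers of 23328 were found in a GRCm38.p6 gene table. Probe sets of a gene were averaged, for 1082 genes with several, which gave 22180 genes. No column was left unused.

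limma 3.58.1 under R 4.3.3 fitted 6 group means to all 17 arrays, with eBayes, and 9 contrasts were tested, two-sided, with Benjamini-Hochberg adjustment over all genes and a threshold of 0.05. The script was tested on simulated data. Counting is not involved, and the number of arrays limits the precision. Named were the 8 genes, the list genes called in both tissue comparisons in 1 direction, and, for genes with a tissue difference over 1, the 3 closest genes. Alternatives were quantile normalization, median centring, fitting only the groups compared, array weights, robust eBayes, other choices of probe set, replicate blocks, a covariate of Y-linked genes and leaving out each array. The 8 genes and all lists were chosen with earlier results of these data known.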

Additional observations from a re-analysis of the deposited data

Results flagged for a closer look

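Srxn1 differed in direction between the genotypes after Dox in marrow. In wildtype every Dox array (-0.10, -0.18 and -0.14) lay above both arrays without Dox (-0.22 and -0.35), a difference of 0.15 ± 0.26. In knockout every Dox array (-0.20, -0.08 and -0.28) lay below the 3 arrays without Dox (0.07, -0.07 and 1.05), a difference of -0.54 ± 0.23. The effects were 0.69 apart, and the interaction that tests this was not called (-0.69 ± 0.35, limma adjusted p = 0.663). Without the outlying array at 1.05, the Srxn1 interaction was -0.34 (adjusted p = 1).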

How the results depend on the processing

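No difference of the 8 genes that was called changed direction under any of the 27 alternatives. Of 1944 values (8 genes, 9 comparisons, 27 alternatives), 1839 kept their direction and their side of the threshold, 25 lost a call, 25 gained one, and 55 differences called under neither setting changed sign. The tissue calls of Hmox1 (-2.09 to -1.61 in wildtype, -2.76 to -2.30 in knockout) and Slc7a11 (3.79 to 5.23 and 3.69 to 4.87) stood in all 27. The count of the 8 genes called between tissues in wildtype, 3, became 5 with only the groups compared fitted and 5 with array weights, and ranged from 2 to 6 when 1 array was left out (6 without knockout marrow replicate 3 without Dox, the outlying array, and 5 without replicate 2 of that group). In knockout the count of 5 ranged from 2 to 5 when 1 array was left out, with 3 without knockout marrow replicate 1 or 2 with Dox or without knockout esophageal replicate 1 or 2, and 2 without knockout marrow replicate 3 with Dox. For knockout against wildtype in the esophagus the count of 0 became 2 with array weights and ranged from 0 to 2 when 1 array was left out (2 without the outlying array, 1 without wildtype replicate 1). After Dox in wildtype marrow it became 1 after quantile normalization and 1 with array weights, and ranged from 0 to 1 when 1 array was left out (1 without the outlying array). In knockout marrow it became 2 with array weights and ranged from 0 to 1 (1 without knockout replicate 1 without Dox). The cause was not tested. Where leaving out an array leaves 1 in its group, that array is taken to vary as the rest do. Over all genes, called counts between tissues ran from 1335 to 8210 in wildtype (3366 as reported, 8092 without the outlying array) and from 1538 to 6117 in knockout (2336). Between genotypes in the esophagus they ran from 2 to 858 (77), and after Dox from 0 to 126 in wildtype (5) and from 0 to 3331 in knockout (5). Signal over background is not known for centred values.

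No label says that a replicate number is an animal or a batch, and the reported fit did not pair samples by it. Same-numbered marrow and esophageal arrays of 1 genotype with Dox had correlations of deviations from -0.0566 to 0.119, with 1 of 6 over 0.1. Same-numbered arrays of any 2 groups had -0.0999 to 0.231, with 11 of 40 over 0.1. These values cannot decide whether numbers pair the samples, because deviations within groups of 2 or 3 arrays are tied to one another. With a replicate block on the number, the count of called genes between tissues became 3 in knockout and that between genotypes in the esophagus became 1 (Hmox1). With genotype and number as the block, Gclc gained its wildtype tissue call (adjusted p = 0.0487) and Nqo1 lost its knockout call (adjusted p = 0.0802).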
